A study of Homo sapiens with 4 samples.

Results

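Among the rows of a ribosome footprint count table of A375 cells, those at the places of MYO10, TRIO and DAB2 on the short arm of chromosome 5 and of TLN1, TPM2 and CLTA on the short arm of chromosome 9 were compared between cells without and with arginine. They are 6 of 78724 rows, of which 9443 held a read. The genes were chosen by name, with earlier results of these data known, and their rows were found by GRCh38 place. A375 is an established human melanoma line. Cells spent 48 h either in a medium made without L-arginine or in a control medium, with 2 libraries each, and ribosome-protected fragments were sequenced without depleting ribosomal RNA. The labels do not say whether the libraries of a group came from separate cultures, so each p-value rests on a spread between libraries that may be purely technical.

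Actin filaments shape the cell and pull on its surroundings. Tropomyosins lie along them, myosins move on them, guanine nucleotide exchange factors switch on small GTPases that direct their assembly, and talin ties them to integrins at adhesion sites. Clathrin coats the pits in which receptors are taken up from the same membrane, and adaptors choose the cargo. A footprint is the stretch of mRNA covered by 1 ribosome, so its count moves with the amount of the mRNA as well as with its translation. These cannot be told apart here, nor can fewer cells and less RNA per cell in such bulk lysates.

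The table holds 234766 and 192006 reads for arginine-free replicates 1 and 2, against 105004 and 217989 for control replicates 1 and 2. The counting annotation is on GRCh38, while the submitters' processing notes name GRCh37 and hg19 for the reads. Rows outside the regions described next were therefore not read as their genes. Of 17990 nuclear protein-coding rows there, 72.4% held no read. The regions used here run from the tip of each short arm to the rows of HMGCS1 on chromosome 5 (ending at 43313512) and GNE on chromosome 9 (ending at 36277042), where 35.6% of 132 and 36.3% of 168 protein-coding rows held no read. Their extent was chosen with earlier results of these data known, and unexpressed genes and low depth also leave rows empty. These shares thus cannot show which rows hold their gene's reads. All 6 rows held over 20 reads, the minimum set for a test, and all passed the filter on low counts in both media. They may still hold only part of their gene's reads, and coverage around them was uneven: 15 of 20 protein-coding rows within 1 Mb of MYO10 held no read, against 0 of 5 around TRIO, 1 of 6 around DAB2, 14 of 35 around TLN1, 15 of 36 around TPM2 and 11 of 28 around CLTA. The share of empty rows around MYO10 was thus not below that outside the regions. The melanocyte label could be checked only on 3 markers in these regions. MLANA had 0 and 2 reads in arginine-free medium against 6 and 10 in control medium, TYRP1 had 1 and 0 against 16 and 25, and SLC45A2 had 2 reads in all. The leukocyte marker FYB1 had 17 reads. The part of these marker changes in the results below was not tested.

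Start regions of the genes were available in the RefSeq promoter table for 5 members (GRCh38.p14, 250 bases before to 50 after the start, on the gene's strand). A pair of them is printed, that of MYO10, the row with the clearest decrease, and that of CLTA, a row with higher values in both arginine-free libraries, with motif matches in capitals. The data measure footprints and not promoter activity, so the sequences only show what lies at the start of these genes.
MYO10, chr5:16936239-16936538, minus strand: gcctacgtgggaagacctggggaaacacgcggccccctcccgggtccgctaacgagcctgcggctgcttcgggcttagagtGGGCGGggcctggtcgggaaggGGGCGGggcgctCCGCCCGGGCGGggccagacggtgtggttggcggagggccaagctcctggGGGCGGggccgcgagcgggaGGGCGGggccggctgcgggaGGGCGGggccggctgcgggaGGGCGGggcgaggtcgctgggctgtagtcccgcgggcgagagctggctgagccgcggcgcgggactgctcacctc
CLTA, chr9:36190671-36190970, plus strand: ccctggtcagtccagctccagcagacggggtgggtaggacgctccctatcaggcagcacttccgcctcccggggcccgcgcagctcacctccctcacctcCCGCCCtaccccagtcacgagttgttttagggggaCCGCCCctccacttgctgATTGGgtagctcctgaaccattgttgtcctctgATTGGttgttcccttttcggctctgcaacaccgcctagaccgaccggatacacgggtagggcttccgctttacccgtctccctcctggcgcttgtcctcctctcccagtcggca
Motifs were searched as exact letters on both strands, and no matches within a window overlapped each other. The GC box, with the letters GGGCGG, is found in 45% of all 35116 promoters of the table. The MYO10 window held it at 8 places, 7 of them on the gene's strand, and 285 promoters (0.812%) hold it at as many places or more. This share was taken for the member with the most places. Its window is 78.3% G and C, the only letters of the motif, against a median of 58.7% over all promoters. The GC box was also in the windows of TRIO, DAB2, TLN1 and CLTA. CLTA held the CCAAT box at 2 places, both on the other strand and starting 97 and 64 bases before the gene's RefSeq start. This motif is in 34.6% of all promoters. For CLTA and DAB2 the RefSeq start lies inside the counted row. Part of the CLTA window before that start, and all of the DAB2 window, thus fall within their rows. DAB2 held the TEAD motif, with the letters CATTCC, at 1 place, as 14% of all promoters do. None of the 5 windows held the other motifs searched. These were the AP-1 site TGANTCA, found in 7.71% of all promoters, and the amino acid response element TGATGNAAT, found in 0.991%. The remaining ones were the TATA box TATAAA (11.5% of all promoters), the E-box CACGTG (7.26%) and the CArG box of serum response factor (1.29%).

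Footprints on MYO10 fell and those on TPM2 rose in arginine-free medium, while TRIO, DAB2, TLN1 and CLTA did not pass the test. That is 2 of 6 rows past an adjusted p of 0.05, against 33.0% of all 2526 tested rows (16.0% higher and 16.9% lower) and 27.7% of the 137 tested rows in the regions of chromosomes 5 and 9 (14.6% higher and 13.1% lower). The share of called members is thus that of the table. The 2 libraries of one medium lay apart from both of the other for 5 of the 6 rows, and for 67.3% of all tested rows. The median log2 fold change of the 6 rows was -0.33, against -0.03 over all tested rows, -0.19 over the 60 tested rows of the chromosome 5 region and 0.00 over the 77 of the chromosome 9 region. Fold changes are arginine-free over control from edgeR's quasi-likelihood test, and levels are CPM, taken per library over tested rows with TMM factors applied.

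**Figure D1:**
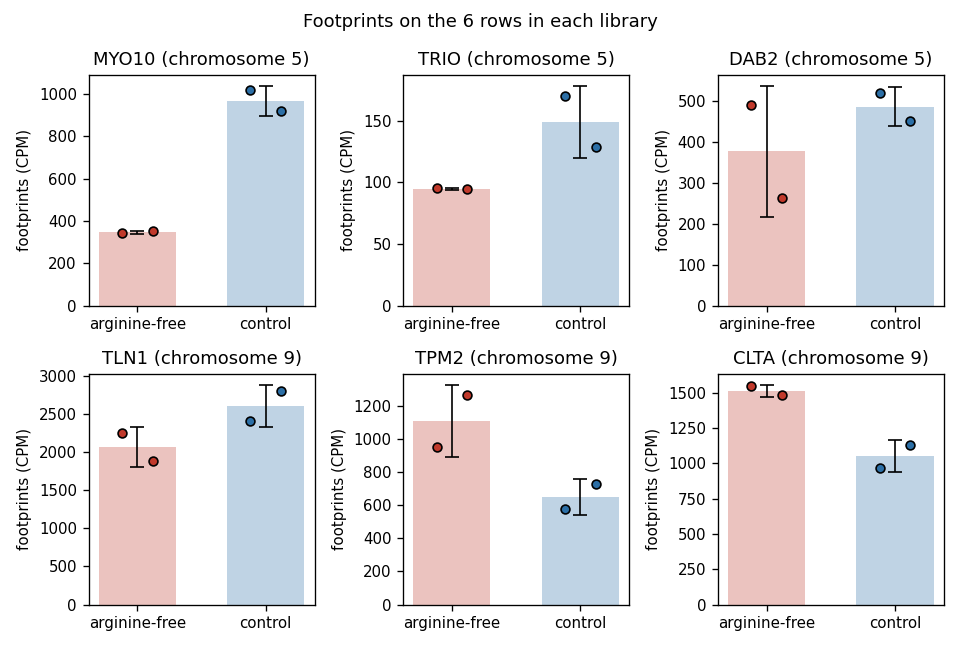
Footprints in CPM (vertical axes, from 0) for the 6 rows, with 1 point per library, bars at the mean and error bars of 1 SD (n = 2). MYO10 points lie at 342 and 352 CPM in arginine-free medium against 1018 and 918 CPM in control medium, TPM2 and CLTA points are higher in arginine-free medium, and the arginine-free points of DAB2 lie far apart.

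MYO10 encodes myosin X, a motor that walks on actin bundles to the tips of filopodia and binds integrins and phosphoinositides through its tail. Its row (ENSG00000145555.15, chromosome 5, 16661907 to 16936288, minus strand) has 44 exon blocks with 13134 exonic bases. It had 79 and 56 reads in arginine-free medium, against 108 and 179 reads in control medium. In CPM the row stood at 342 and 352 in arginine-free medium and at 1018 and 918 in control medium, so that the groups lay far apart. The arginine-free libraries were nearly equal, which at 79 and 56 reads does not show how precise that level is. Footprints were 2.78-fold lower, at 347 ± 6.79 CPM in arginine-free and 968 ± 70.6 CPM in control medium (SD, n = 2 each). The log2 fold change was -1.47 with an SE of 0.22 (adjusted p = 0.000179 in the edgeR fit). This call held under each of the 14 alternatives tried, with log2 fold changes between -1.71 and -1.37 and adjusted p of at most 0.00219. An unnamed row on the other strand shares 230 exonic bases with MYO10 and held 8 reads.

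TRIO encodes a guanine nucleotide exchange factor with a pair of catalytic units, which activates RAC1 and other small GTPases. The row (ENSG00000038382.23, chromosome 5, 14143342 to 14510204, plus strand) has 59 exon blocks over 12848 exonic bases and was the thinnest of the 6. It had 22 and 15 reads in arginine-free medium, against 18 and 25 in control medium. These are 95.3 and 94.2 CPM in arginine-free and 170 and 128 CPM in control medium, so both arginine-free libraries were lower. The difference did not pass (log2 fold change -0.61, SE 0.35, 95% interval -1.36 to 0.15, edgeR adjusted p = 0.203). The row held 80 reads in all, and the interval holds no change as well as a decrease beyond 2-fold (a log2 change of -1). What size of difference could be detected at this depth was not tested. An unnamed row on the other strand, with 3 reads, shares 170 exonic bases with it.

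DAB2 encodes an adaptor that links the LDL receptor family and integrins to clathrin pits. The row (ENSG00000153071.15, chromosome 5, 39371675 to 39425233, minus strand) had 113 and 42 reads in arginine-free medium, against 55 and 88 in control medium. In CPM it stood at 489 and 264 in arginine-free medium and at 518 and 451 in control medium. One arginine-free library thus lay among the controls and the other well below them. The fitted log2 fold change was -0.33 (SE 0.28, 95% interval -0.93 to 0.28, edgeR adjusted p = 0.4). It was -0.81 without arginine-free replicate 1, where it passed (adjusted p = 0.0268 by edgeR), and 0.09 without arginine-free replicate 2, so the direction rested on which of these libraries was kept. A row on the same strand shares 119 exonic bases with DAB2 and held 0 reads.

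TLN1 encodes talin 1, which binds integrin tails and actin and bears the force between them. With 1622 reads its row (ENSG00000137076.22, chromosome 9, 35696948 to 35732195, minus strand, 58 exon blocks) was the best covered of the 6. It had 519 and 300 reads in arginine-free medium, against 256 and 547 in control medium. These are 2248 and 1884 CPM in arginine-free and 2413 and 2805 CPM in control medium. Both arginine-free libraries were lower, by less than the test could call (log2 fold change -0.34, SE 0.22, 95% interval -0.82 to 0.14, edgeR adjusted p = 0.269). The value was -0.16 without arginine-free replicate 2 and -0.20 without control replicate 2. None of 14 alternatives made it pass, with adjusted p from 0.0526 to 0.753. The row of MIR6852, a microRNA inside TLN1, shares 8 exonic bases with it and held no read.

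TPM2 encodes beta-tropomyosin, a coiled coil that runs along actin filaments and governs which myosins bind. Its row (ENSG00000198467.16, chromosome 9, 35681993 to 35690056, minus strand, 11 exon blocks, 1568 exonic bases) lies 6.89 kb from that of TLN1. It had 220 and 201 reads in arginine-free medium, against 61 and 142 in control medium. That is 953 and 1263 CPM in arginine-free medium and 575 and 728 CPM in control medium, with both arginine-free libraries above both controls. Footprints rose 1.68-fold, with 1108 ± 219 CPM in arginine-free and 652 ± 108 CPM in control medium (SD, n = 2 each). The log2 fold change was 0.75 with an SE of 0.23 (adjusted p = 0.0225 in the edgeR fit). The call was kept under 8 of 14 alternatives. It ended when control replicate 1 was left out (adjusted p = 0.233 by edgeR), without arginine-free replicate 2 (0.0632), with library totals and no factors (0.0544), with a minimum of 50 counts (0.0769) and with DESeq2 (adjusted p = 0.101, and 0.107 on the rows that edgeR tested), always with TPM2 higher in arginine-free medium.

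CLTA encodes clathrin light chain A, which sits on the hub of the clathrin lattice and ties it to the actin machinery. The row (ENSG00000122705.18, chromosome 9, 36190856 to 36212061, plus strand, 7 exon blocks, 1235 exonic bases) had 357 and 236 reads in arginine-free medium, against 103 and 221 in control medium. These are 1546 and 1482 CPM in arginine-free medium and 971 and 1133 CPM in control medium. Both arginine-free libraries were above both controls, at 1514 ± 45.1 against 1052 ± 115 CPM (SD, n = 2 each), and the difference did not pass (log2 fold change 0.52, SE 0.21, 95% interval 0.06 to 0.98, edgeR adjusted p = 0.0744). CLTA passed under 2 of 14 alternatives, without arginine-free replicate 2 (adjusted p = 0.0392 by edgeR) and with the rows of the chromosome 5 and 9 regions alone (0.0284), an alternative chosen after seeing the data. No other row shares exonic bases with CLTA or with TPM2.

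Ratios of reads within a library do not depend on how libraries are scaled, and the pairs given here were chosen after their values were seen. For each read on TLN1 there were 0.424 and 0.67 reads on its neighbour TPM2 in arginine-free libraries, against 0.238 and 0.26 in control libraries. CLTA over TLN1 was 0.688 and 0.787 in arginine-free and 0.402 and 0.404 in control libraries. The talin to myosin X ratio, TLN1 over MYO10, was 6.57 and 5.36 in arginine-free libraries, against 2.37 and 3.06 in control libraries, so it was higher without arginine even though both rows had lower CPM there. CLTA over DAB2, the coat over its adaptor, was 3.16 and 5.62 in arginine-free and 1.87 and 2.51 in control libraries. TPM2 over CLTA overlapped, at 0.616 and 0.852 in arginine-free against 0.592 and 0.643 in control libraries. No test was run on these ratios.

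**Figure D2:**
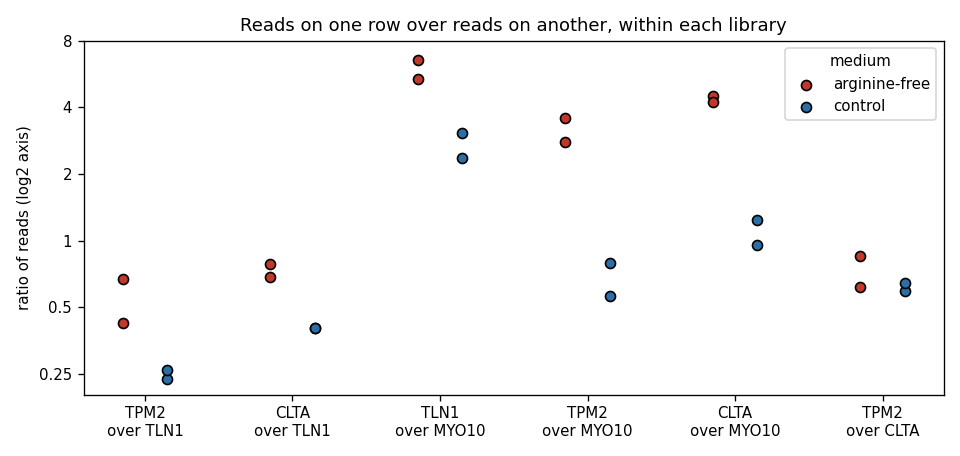
Reads on one row divided by reads on another in the same library (vertical log2 axis), with 1 point per library. Of the 6 pairs drawn, arginine-free points lie above control points except for TPM2 over CLTA, where 0.616 and 0.852 overlap 0.592 and 0.643. The pairs were chosen after their values were seen and share rows with each other, so they are not separate results. No share over all pairs of rows was taken.

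The 6 rows together took 0.558% and 0.443% of all counts in arginine-free replicates 1 and 2 (95% Wilson intervals 0.529 to 0.589 and 0.414 to 0.473), against 0.572% and 0.551% in control replicates 1 and 2 (0.529 to 0.62 and 0.521 to 0.583). The intervals cover counting error only, since amplified fragments without molecular identifiers are not independent molecules. The difference in means was -0.06 percentage points, smaller than the SD of 0.0815 between the arginine-free libraries. Leaving out arginine-free replicate 1 gave -0.12 and leaving out arginine-free replicate 2 gave -0.00388, so its size rested on 1 library. No p is given for it, since an exact permutation test of 2 against 2 libraries cannot go below 0.333. The division of the reads among the 6 rows differed between the 2 media, which was not tested. As parts of 1 total these shares are bound together, so a fall in one raises others. MYO10 gave 6.03% and 6.59% of the reads on the 6 rows in arginine-free libraries, against 18.0% and 14.9% in control libraries. CLTA gave 27.3% and 27.8% in arginine-free against 17.1% and 18.4% in control libraries. TLN1 was the largest part everywhere, with 39.6% and 35.3% in arginine-free and 42.6% and 45.5% in control libraries. DAB2 overlapped, with 8.63% and 4.94% in arginine-free against 9.15% and 7.32% in control libraries.

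Per kilobase of exonic length the order of levels was the same in both media. CLTA came first, with 1226 ± 36.5 CPM per kb in arginine-free medium and 852 ± 93.2 in control medium (SD, n = 2 each, as for the next rows). TPM2 followed with 706 ± 140 in arginine-free and 416 ± 69.2 in control medium, and TLN1 with 238 ± 29.6 in arginine-free and 301 ± 32.0 in control medium. The short rows of clathrin and tropomyosin thus stood above the long one of talin. DAB2 had 81.9 ± 34.7 CPM per kb in arginine-free and 105 ± 10.3 in control medium. MYO10 had 26.4 ± 0.517 in arginine-free and 73.7 ± 5.37 in control medium, and TRIO came last with 7.38 ± 0.0584 in arginine-free and 11.6 ± 2.28 in control medium. With 2 libraries and few reads, the small arginine-free SDs of MYO10 and TRIO do not show how precise these levels are. No neighbours in this order overlapped within a medium. The narrowest gap, relative to the level, was between TPM2 and TLN1 in control medium, with 367 CPM per kb in the lower library of TPM2 and 323 in the higher library of TLN1. The length used is that of all listed exons, untranslated parts included, and no order by coding length was taken. The 3 rows of chromosome 5 all lie below the 3 of chromosome 9, and these levels describe what the rows hold, which may be less than the whole gene.

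Other genes of the same processes in these regions were taken from 3 lists, of actin and adhesion, endocytosis and microtubules. Beside the members, 19 rows of the actin and adhesion list lie there. Of these, 7 held no read and 6 were tested, with 0 higher, 2 lower and 4 not past the threshold, where 14.6% of the tested rows of the regions were higher and 13.1% lower. The median log2 fold change of the 6 tested rows was -0.36, against -0.12 over all 137 tested rows of the regions. DESeq2 called 0 of them higher and 1 lower, against 6.57% and 4.38% of the tested rows of the regions. At an unadjusted p under 0.05 edgeR had 0 higher and 3 lower, against 19.7% and 17.5% there. ARHGEF39, 1 of the 2 lower rows and the 1 that DESeq2 called, met the filter on low counts only in control medium. The lower counts and the median of this list thus rest in part on a row selected where it is high.

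MPDZ, a scaffold of many PDZ domains found at cell junctions, fell. It had 26 and 38 reads in arginine-free medium, against 42 and 85 in control medium (113 and 239 CPM in arginine-free against 396 and 436 CPM in control medium, log2 fold change -1.29, SE 0.33, edgeR adjusted p = 0.00888). The MPDZ call ended with DESeq2 (adjusted p = 0.138, and 0.0558 on the rows that edgeR tested). Its log2 fold change became -0.77 when arginine-free replicate 1 was left out and -1.84 when arginine-free replicate 2 was, past the threshold both times. ARHGEF39, a guanine nucleotide exchange factor and the next covered row to TPM2, 16.8 kb away, also passed as lower. It had 1 and 0 reads in arginine-free medium, against 6 and 23 in control medium, so 1 control library held most of its reads. Per total count it was 38.3-fold lower, and an exact 95% interval for counting error alone ran from 6.35 to 1570. The adjusted p in the edgeR fit was 0.00103. The row met the filter on low counts only in control medium, where it is high, and has no value without control replicate 2, so its call depends on that selection. The talin-binding adaptor KANK1 had 125 and 80 reads in arginine-free medium, against 70 and 156 in control medium, and did not pass (log2 fold change -0.49, SE 0.22, edgeR adjusted p = 0.0962). KANK1 passed as lower under 2 of 14 alternatives, with a minimum of 50 counts (adjusted p = 0.0239 by edgeR) and with the chromosome 5 and 9 regions alone (0.0409). CCT5, of the chaperonin that folds actin and tubulin, was almost level, with a log2 fold change of -0.08 (SE 0.22, 95% interval -0.54 to 0.38). RAI14, which binds actin, and RICTOR, of the kinase complex mTORC2, lay on opposite sides of 0, at 0.17 (SE 0.23) and -0.23 (SE 0.33), with neither past the threshold.

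Of 6 further rows of the endocytosis list, 1 held no read and 5 were tested, with 1 higher, 0 lower and 4 not past the threshold, at a median log2 fold change of -0.31. The 1 higher of 5 stands beside the 14.6% of the regions. DESeq2 called the same numbers, and at an unadjusted p edgeR had 1 higher and 1 lower. For this list and the next, DESeq2 called 6.57% of the tested rows of the regions higher and 4.38% lower. At an unadjusted p under 0.05 edgeR had 19.7% and 17.5% there. The row of this list called higher was VLDLR, a lipoprotein receptor of the family that DAB2 brings into clathrin pits. It had 72 and 32 reads in arginine-free medium, against 4 and 8 in control medium (log2 fold change 2.69, SE 0.41, edgeR adjusted p = 0.000241). This row met the filter on low counts only in arginine-free medium, where it is high. EXOC3, of the exocyst that tethers secretory vesicles, came close to the threshold on the lower side, at -0.82 (SE 0.30, adjusted p = 0.0502 by edgeR), and passed under 3 of 13 alternatives. VCP, an ATPase that extracts proteins from complexes and membranes, stood at 0.34 (SE 0.22), DENND4C, an exchange factor for RAB10, at -0.31 (SE 0.28), and UBAP1, of the ESCRT-I sorting complex, at -0.35 (SE 0.44), none past the threshold. Of 9 rows of the microtubule list, 4 were tested, with 0 higher and 1 lower (0 and 1 at an unadjusted p by edgeR, 0 and 0 by DESeq2), beside the 13.1% lower in the regions, at a median log2 fold change of -0.39. The lower one was CNTLN, a centrosome protein, with 9 and 5 reads in arginine-free medium, against 10 and 17 in control medium (log2 fold change -1.31, SE 0.48, edgeR adjusted p = 0.0493). CNTLN met that filter only in control medium, and its call was kept under 2 of 13 alternatives. HAUS6, IFT74 and DCTN3, of augmin, ciliary transport and dynactin, had log2 fold changes of 0.21, -0.54 and -0.23 and did not pass. Outside the regions the 3 lists have 105 rows, of which 56 held no read, and these were not read as their genes.

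**Figure D3:**
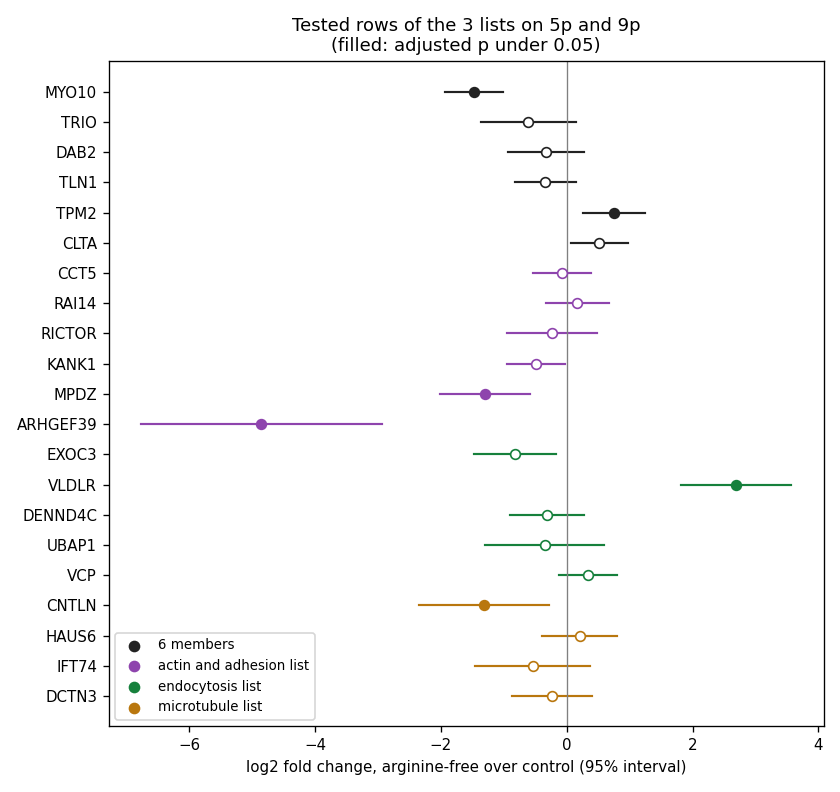
Log2 fold change, arginine-free over control (horizontal axis), with 95% intervals from the edgeR fit, for the 6 members and the tested rows of the 3 lists on 5p and 9p. Filled points are past an adjusted p of 0.05, as for MYO10 at -1.47, TPM2 at 0.75 and VLDLR at 2.69, and open points are not.

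The nearest covered row after TLN1 in coordinate order is CREB3, a membrane-bound transcription factor 0.471 kb away, with 37 and 21 reads in arginine-free medium, against 9 and 13 in control medium (log2 fold change 1.00, SE 0.37, edgeR adjusted p = 0.0537). GNE, a sialic acid synthesis enzyme 2.38 kb from CLTA, had a log2 fold change of -0.20 (SE 0.31), and RECK, an inhibitor of matrix proteases on the other side of CLTA, stood at -0.42 (SE 0.47). RETREG1, a receptor for autophagy of the endoplasmic reticulum 44.8 kb from MYO10, had 8 and 7 reads in arginine-free medium, against 13 and 12 in control medium, for a log2 change of -1.13 (SE 0.52, adjusted p = 0.114 by edgeR). The RETREG1 row met the filter on low counts only in control medium, where it is high, so its value depends on that selection. OTULIN, a deubiquitinase 155 kb from TRIO, stood at 0.35 (SE 0.24). None of these 5 passed in the main test, and CREB3 passed as higher under 3 of 13 alternatives. Apart from ARHGEF39, TPM2 and TLN1, which lie side by side, the remaining neighbours were 297 kb or more away. RICTOR (297 kb) and PRKAA1 (1334 kb) lie on either side of DAB2. DROSHA, of microRNA processing, lies 14460 kb after MYO10, and DAP 3382 kb before TRIO, with no covered protein-coding row between. DAP had 10 and 10 reads in arginine-free medium, against 1 and 4 in control medium, and was not tested.

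Likeness was measured as the root mean square difference of log2(CPM + 1) over the 4 libraries, each row centred on its own mean, against 121 other tested protein-coding rows of the regions. Rows picked this way resemble their member in direction because of the selection, so their changes are no separate evidence. The rows closest to MYO10 were CNTLN (0.138) and FOCAD (0.155). FOCAD, which encodes focadhesin, was lower by 1.28 on the log2 scale (SE 0.28, adjusted p = 0.00316 by edgeR). Its call ended with DESeq2 (adjusted p = 0.105) and held with DESeq2 on the rows that edgeR tested (0.0381). CLTA was closest to NOL6, a ribosome assembly factor (0.0429), and ANKH, a transporter for pyrophosphate export (0.0681), and TPM2 to the same pair (0.205 and 0.155). NOL6 and ANKH did not pass, at 0.51 (SE 0.22) and 0.54 (SE 0.21). TLN1 was closest to OSMR, the oncostatin M receptor (0.0443), and DROSHA (0.0466), TRIO to IFT74 (0.0648) and RFX3, a transcription factor (0.0675), and DAB2 to RICTOR (0.0718) and PRKAA1, a catalytic subunit of AMPK (0.144).

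**Figure D4:**
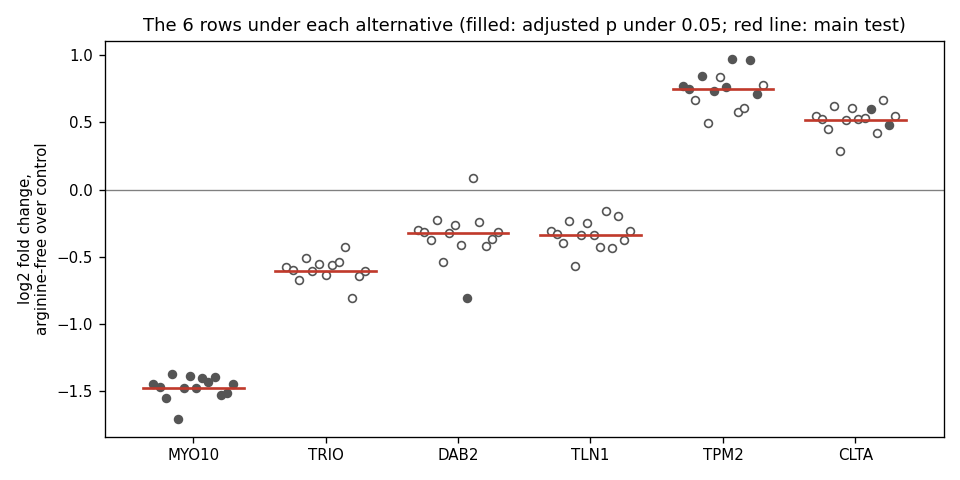
Log2 fold change, arginine-free over control (vertical axis), of the 6 rows under each alternative (points, filled where the adjusted p is under 0.05) and in the main test (red lines). MYO10 points lie between -1.71 and -1.37 and are all filled, TPM2 has 8 filled points of 14, and DAB2 ranges from -0.81 to 0.09.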

How the data were processed

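Footprints of A375 cells were counted in 4 libraries, 2 in arginine-free and 2 in control medium, grouped by title. Per the file headers, the authors made the deposited counts with featureCounts 2.0.1 from exons of GENCODE 47 (basic set), ignoring strand. For the steps before, cutadapt, Bowtie2 2.5.2 and TopHat2, with GRCh37 and hg19, are given in the submitters' processing notes. The header also shows an option for paired reads, while the labels describe single reads, and its effect was not tested. Every per-sample column was mapped to a sample. A library with 0 reads on a row could hide up to 3, equal to 12.8 CPM of all counts at the greatest depth and 28.6 CPM at the lowest.

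Symbols came from RefSeq genes of GRCh38.p14 at the same place (mutual best match, overlap over union of at least 0.5 with a shared end and 0.75 otherwise), which named 38563 rows. All rows entered edgeR 4.0.16 (R 4.3.3) with TMM factors and filterByExpr. P-values of its quasi-likelihood test were adjusted over the 2526 tested rows (Benjamini-Hochberg, threshold 0.05). SE were worked back from the F statistic. The code was checked on simulated counts. DESeq2 1.42.0, other factors, filters, a replicate block and each library left out were alternatives. Python 3.11.15 and pandas 2.3.3 served for the tables.

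Named genes are the 6 members, the genes of 3 lists in both regions with 20 or more reads, the nearest covered protein-coding row on either side of a member and the 2 rows most like each. Members, lists and the extent of the regions were chosen with earlier results of these data known.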

Additional observations from a re-analysis of the deposited data

How the results depend on the processing

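Among 83 values of the 6 rows under the alternatives, 6 lost a call, 3 gained one and 74 did neither, and no called value reversed. TPM2 lost its call at log2 fold changes of 0.67 with library totals, 0.50 with a minimum of 50 counts, 0.84 with DESeq2 and 0.78 with DESeq2 on the rows that edgeR tested, and ranged from 0.58 to 0.98 with one library left out. CLTA ranged from 0.42 to 0.66 with one library left out. It newly passed at 0.60 without arginine-free replicate 2 and at 0.48 with the chromosome 5 and 9 regions alone. DAB2 ranged from -0.81, where it newly passed, to 0.0888 with one library left out, and TLN1 from -0.44 to -0.16 without passing. TRIO was not among the rows tested with the minimum of 50 counts and has no value there. The minimum of 50 counts moved the median of 580 shared rows by -0.24, and the 5 of the 6 rows tested there moved down with it. Rows higher and lower over the table numbered 405 and 428, against 138 and 146 with that minimum, 162 and 147 with DESeq2, 193 and 189 with DESeq2 on the tested rows, and from 243 to 389 lower with one library left out. Fewer rows or libraries entered some of these settings, and otherwise the cause was not tested. The titles share replicate numbers, and the deviations of same-numbered libraries had a correlation of r = -0.0842 across 1347 rows, which are not independent. With 2 libraries per medium, this value cannot show whether same-numbered libraries were handled together, and the labels do not say. With the replicate block 354 rows were higher and 372 lower, MYO10 stood at -1.48 and TPM2 at 0.76, and no call on the 6 rows changed. Of 357 values for 27 other named genes, 14 lost a call, 12 gained one and 331 did neither. Depth limits TRIO most, at 80 reads.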
